A study of Mus musculus with 4 samples.

Results

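The 7 genes described here encode the 4 early growth response factors Egr1, Egr2, Egr3 and Egr4 and the 3 orphan nuclear receptors Nr4a1, Nr4a2 and Nr4a3. They are 7 of the 21851 protein-coding genes on the numbered chromosomes, X and Y, and were chosen as a family, not from a measured value. Each gene was followed in a window of its annotated body plus 50 kb on each side, and all open regions of the 4 deposited peak lists that overlap a window were taken. The windows held 81, 84, 80 and 82 regions in replicates 1 to 4, which merged into 93 regions out of 101015 in the whole genome. ATAC-seq, which marks open chromatin by where a transposase can cut and tag the DNA, was run on primary T-helper 17 (Th17) cells of mouse strain C57BL/6NJ, the CD4 T cells that make interleukin 17. All 4 samples are biological replicates of this 1 group and carry the same donor identifier. The labels give no other treatment, allele or time, the age as unknown and the sex as not collected. The names of the peaks in all 4 lists also carry the words 72hrs and ASTARR.insert, which the labels do not explain, so what was timed, and what kind of library was sequenced, is not settled here.

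Both families are switched on within minutes of stimulation in many cell types, without the need for new protein, and in T cells they respond to the antigen receptor. EGR proteins are zinc-finger factors that bind GC-rich sites. Egr1, Egr2 and Egr3 are held in check by the corepressors Nab1 and Nab2, and Egr2 and Egr3 are known in T cells for restraining activation. NR4A proteins are nuclear receptors that act without a known physiological ligand, bind a site called NBRE as single molecules, and are known in T cells for roles in tolerance and regulatory T cells. Classical inputs to such genes are SRF with its Elk partners at the CArG box, CREB at the cyclic AMP response element (CRE) and MEF2.

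The promoters of the members are shown first, because the open regions described next lie over them. The RefSeq table (GRCm38.p6, the same assembly as mm10) held entries for 5 members, and the 250 bases before the start are printed 5′ to 3′ on the strand of the gene. Capitals mark the CRE core TGACG on either strand, and the CArG box, MEF2 and NF-kB motifs.
Egr2, chr10:67537619-67537868, plus strand: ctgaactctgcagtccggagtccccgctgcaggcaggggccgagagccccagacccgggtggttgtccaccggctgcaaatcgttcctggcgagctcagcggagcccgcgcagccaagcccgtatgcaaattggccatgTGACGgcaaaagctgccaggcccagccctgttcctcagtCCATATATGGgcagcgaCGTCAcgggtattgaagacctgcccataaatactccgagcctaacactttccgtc
Egr4, chr6:85513590-85513839, minus strand: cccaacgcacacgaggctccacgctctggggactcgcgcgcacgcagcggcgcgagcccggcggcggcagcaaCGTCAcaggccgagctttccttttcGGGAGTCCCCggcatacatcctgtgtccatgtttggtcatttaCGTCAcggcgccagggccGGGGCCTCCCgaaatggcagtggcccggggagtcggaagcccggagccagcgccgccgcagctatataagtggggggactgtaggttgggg
Nr4a1, chr15:101266596-101266845, plus strand: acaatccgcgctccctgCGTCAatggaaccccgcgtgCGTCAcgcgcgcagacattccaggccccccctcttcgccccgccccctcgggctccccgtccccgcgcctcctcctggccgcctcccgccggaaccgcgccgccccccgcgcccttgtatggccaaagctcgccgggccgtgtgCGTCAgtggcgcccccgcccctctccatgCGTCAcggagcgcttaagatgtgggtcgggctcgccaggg
Nr4a2, chr2:57124004-57124253, minus strand: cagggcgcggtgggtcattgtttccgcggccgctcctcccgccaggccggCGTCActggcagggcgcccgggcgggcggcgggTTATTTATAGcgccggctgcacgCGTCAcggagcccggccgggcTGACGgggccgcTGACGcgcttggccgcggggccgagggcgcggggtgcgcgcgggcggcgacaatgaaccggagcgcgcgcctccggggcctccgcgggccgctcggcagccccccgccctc
Nr4a3, chr4:48045055-48045304, plus strand: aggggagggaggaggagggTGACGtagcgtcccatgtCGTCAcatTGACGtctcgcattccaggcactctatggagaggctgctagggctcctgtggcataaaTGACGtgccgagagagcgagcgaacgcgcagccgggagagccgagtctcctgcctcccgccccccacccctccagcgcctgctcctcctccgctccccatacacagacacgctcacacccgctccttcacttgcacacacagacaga
Each of the 3 NR4A promoters held 4 copies of the CRE core. Of all 32851 RefSeq promoters of this length, 17.8% held at least 1 copy and 45 (0.137%) held 4 or more. The Egr2 and Egr4 promoters held 2 copies each, and 3.90% of all promoters held 2 or more. The CRE core contains a CpG (C followed by G), and these shares were not matched for CpG content. The Nr4a1, Nr4a2 and Nr4a3 promoters held 34, 44 and 18 CpG. Egr2 has 5 entries in the table, of which the one at its first protein-coding start is printed. Of the 5, 3 held a CRE core and 4 a CArG box, while each of the other 4 matched members has 1 entry. The 3 Egr2 entries with a CRE core overlap and hold the same sites. The entry with a CArG box but no CRE core holds a different box, CCTTTTTTGG. The marked motif of 10 bases between the CRE cores of Egr2 is a CArG box, found in 1.47% of all promoters. The capitals of Egr4 outside the CRE cores are 2 NF-kB motifs, a motif found in 7.25% of all promoters. The A/T-rich run of capitals in Nr4a2 is a MEF2 motif, found in 2.92% of all promoters. None of the 5 printed promoters held the complete CRE (TGACGTCA), the long EGR site (GCGTGGGCG) or the NBRE (AAAGGTCA). These matches describe letters in this window and do not show binding.

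The 4 lists held 83904, 85127, 85293 and 84137 regions in replicates 1 to 4, and 68696 merged regions had a region from every replicate and are called shared. The deposited signal is the authors' enrichment value of a region and is not set to a common scale between replicates, so each region was ranked within its own list. The lists carry no read counts, so the depth is unknown and counting intervals cannot be given. All errors are the SD over the 4 replicates. Nothing in the labels says that these came from separate animals, so the spread may be technical. With 1 group there is no comparison between conditions, and no sign-flip test over 4 replicates can pass 0.05, so the values below are descriptions. As a check of the cell label, all 11 of 11 CD4 T and Th17 marker genes, among them Cd4, Il17a and Il23r, had an open promoter, beside 62.2% of all protein-coding genes. Of the B, myeloid and NK cell markers 0 of 3 in each list were open in all 4 replicates, though 2 of the NK markers were open in some; 1 of 2 CD8 markers (Cd8b1) was open in all 4. By signal, the median percentile of the 11 genes among open promoters was 25.4. Cd4 was at 5.81, Il17a at 4.78 and Il23r at 35.8, while Cd8b1 was at 27.9. In bulk material, fewer open cells and less opening per cell cannot be told apart.

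All 7 promoters were open, meaning that every replicate on its own had a region no more than 1 kb from a protein-coding start site. Among all protein-coding genes 62.2% met this rule. CpG-rich promoters are open more often: among genes within 0.05 of each member's ratio of observed to expected CpG, the share was 79.0% for Egr1 and 93.3% to 96.1% for the 6 others. The ratio was taken around the first protein-coding start. Beside these shares, 7 open promoters of 7 are not a result about the members.

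By signal, the members' promoters ranked low to middling among open promoters. Nr4a2 had signal values of 11.2, 11.7, 10.6 and 11.1 in replicates 1 to 4, and a percentile of 55.4 ± 1.80 (SD, n = 4) among the open promoters of each replicate. Nr4a1 followed with 10.3, 10.5, 9.85 and 10.5 and a percentile of 48.6 ± 2.29. Egr2 had 9.92, 10.1, 8.81 and 8.94 and a percentile of 41.8 ± 3.39. The percentile ranges of Nr4a2, Nr4a1 and Egr2 did not overlap. Egr4 had signal values of 8.39, 9.04, 8.89 and 8.14 and a percentile of 35.3 ± 3.19, and its range overlapped that of Egr2. Egr1 had 7.16, 7.37, 6.64 and 7.12 and a percentile of 24.2 ± 1.21. Egr3 had 6.24, 6.74, 5.20 and 6.01 and a percentile of 18.1 ± 2.87. The Egr3 values are those of a region whose mean summit lay 2.23 kb upstream of the start. Nr4a3, the lowest member, had 4.96, 4.67, 4.54 and 4.62 and a percentile of 11.1 ± 0.700. From Egr4 downward no neighbours in the order overlapped. Of the 7 members 6 lay below the median percentile of all open promoters, 51.5, and Nr4a2 lay above it.

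**Figure D1:**
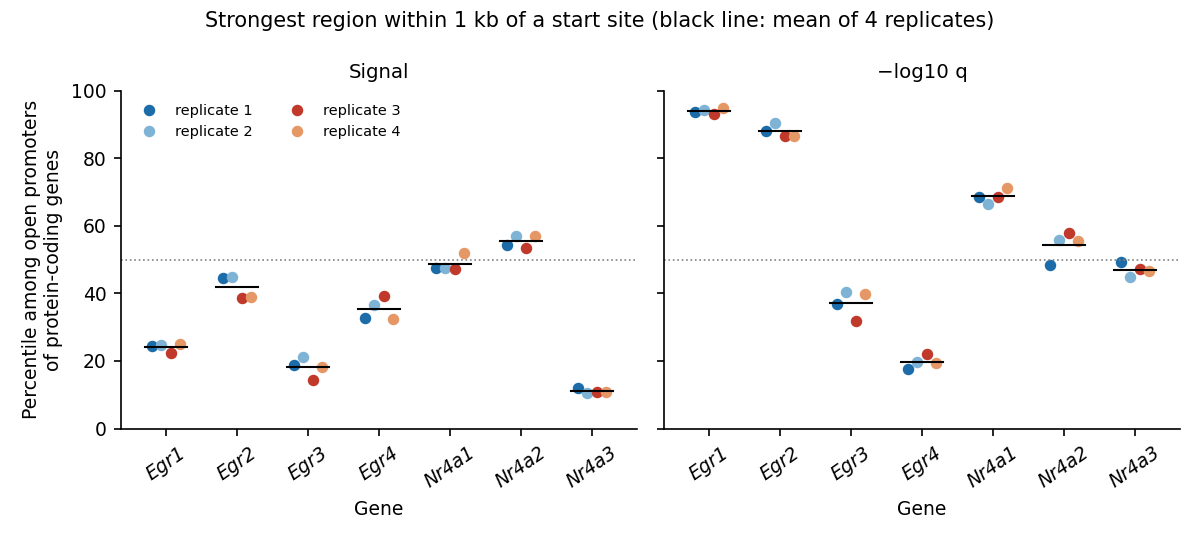
Percentile of each member's promoter (vertical axis) among all open promoters of the same replicate, by signal (left) and by −log10 q (right). Each value is the highest of the regions that reach within 1 kb of a start site, taken separately for signal and −log10 q. For Nr4a2 the panels therefore show different regions, at the first start by signal and at a downstream start by −log10 q. The mean summit of the Egr3 region lies 2.23 kb upstream of the start. Points are the 4 replicates and the black line is their mean. By signal Nr4a2 is highest at 55.4 and Nr4a3 lowest at 11.1; by −log10 q Egr1 is highest at 93.9 and Egr4 lowest at 19.6.

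Ranked by the authors' −log10 q, the order of the members was another. The Egr1 promoter had −log10 q values of 512.4, 529.2, 526.5 and 515.9 in replicates 1 to 4 and a percentile of 93.9 ± 0.795. Egr2 had 419.9, 458.7, 428.7 and 392.1 and a percentile of 87.9 ± 1.74. Both stood above the other members in all 4 replicates. Nr4a1 had a percentile of 68.7 ± 1.88, Nr4a2 of 54.4 ± 4.17, Nr4a3 of 46.9 ± 1.78, Egr3 of 37.2 ± 3.92 and Egr4 of 19.6 ± 1.79, and of these neighbours Nr4a2 and Nr4a3 overlapped. The Nr4a2 value by −log10 q is that of a downstream start, while its value by signal is that of the first start. For Egr1 the percentile by −log10 q exceeded that by signal by 69.7 ± 0.590 points, a gap at the 99.9 percentile of the 13591 open promoters. The gap was 46.1 ± 2.06 points for Egr2 and 35.9 ± 1.23 points for Nr4a3, at percentiles 97.8 and 94.8. It was -15.6 ± 1.84 points for Egr4, whose signal ranked above its −log10 q. Counted over regions, 51 of the 70 shared regions in the windows had a higher percentile of −log10 q than of signal, against 41.4% of all shared regions and 62.1% of shared promoter regions.

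Egr1 (ENSMUSG00000038418.7, chromosome 18, 34859823 to 34864984, plus strand) is the most widely used marker of the early response. Its open promoter region was 1844, 1827, 1844 and 1948 bp wide in replicates 1 to 4. The mean summit lay in an exon, 1.03 kb downstream of the first start and 349 bp before another protein-coding start. The region covered that other start in 4 of 4 replicates and the first start in 1 of 4. The summit held a CArG box within 50 bp in all 4 replicates. The window held 10 shared regions, at percentile 70.4 of protein-coding genes. The strongest of them was an intergenic region 27.7 kb downstream of the start with signal values of 13.5, 13.6, 11.3 and 10.5, at percentile 85.2 ± 5.08 of all regions. Both replicates with the library tag KS136 were lower there than both with KS134, and the labels do not say what the tags stand for. A wide region 3.45 kb upstream of the start, 2544 bp long when merged, had low signal of 3.71, 3.98, 3.54 and 3.56 and again ranked higher by −log10 q, at percentile 84.8 against 22.5 by signal. Its summit held a CRE core in every replicate. Of the 10 regions 3 were nearest to the start of Reep2 and 3 to that of Etf1, and 4 were nearest to Egr1.

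Egr3 (ENSMUSG00000033730.4, chromosome 14, 70077203 to 70082614, plus strand) acts with Egr2 in limiting T-cell activation. Its promoter region was the widest of the members, at 3158, 3105, 3129 and 3117 bp, and stood at percentile 99.1 ± 0.117 of the widths of open promoters, whose median was 1378 bp. The mean summit lay 2.23 kb upstream of the start, and the region reached over the start in every replicate. Egr2 (ENSMUSG00000037868.15, chromosome 10, 67535475 to 67542188, plus strand) had the next widest, at 2895, 2881, 2923 and 2889 bp and percentile 98.5 ± 0.180. It covered both the first protein-coding start and another annotated start 2.39 kb upstream, and its summit lay 327 bp before the first of these, with a CArG box within 50 bp in all 4 replicates. This mean summit lies outside the promoter printed above, in the stretch of the entry that holds the box CCTTTTTTGG. Egr4 (ENSMUSG00000071341.4, chromosome 6, 85511121 to 85513589, minus strand), which can pair with NFAT factors in T cells, had a narrow promoter region of 952, 1141, 1059 and 1145 bp at percentile 26.0 ± 6.85.

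Nr4a1 (ENSMUSG00000023034.7, chromosome 15, 101254269 to 101274795, plus strand), also known as Nur77, is a standard reporter of antigen receptor signalling. It was open at both protein-coding start sites. The downstream start, 12.6 kb from the first, had signal values of 10.3, 10.5, 9.85 and 10.5, against 6.86, 6.97, 6.50 and 7.33 at the first start. The downstream start was higher in 4 of 4 replicates, by a ratio of 1.49 ± 0.0394. It is the start whose promoter is printed above with 4 CRE cores, and the summit there held a CRE core within 50 bp in every replicate.

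Nr4a2 (ENSMUSG00000026826.13, chromosome 2, 57106830 to 57124003, minus strand), known as Nurr1 and best known from dopamine neurons, showed the reverse order by signal. Its first start had signal values of 11.2, 11.7, 10.6 and 11.1. The start 8.96 kb downstream had 6.73, 7.33, 7.07 and 6.75, lower in all 4 replicates, by a ratio of 0.627 ± 0.0299. By −log10 q this downstream start was the higher one in all 4 replicates. Its −log10 q values were 152.4, 185.7, 217.6 and 187.1, against 135.2, 139.5, 160.7 and 151.2 at the first start. No list had a region within 1 kb of its last protein-coding start, 10.9 kb downstream of the first. Nr4a3 (ENSMUSG00000028341.9, chromosome 4, 48045153 to 48086447, plus strand), known as Nor1, was open at its first start only. No list had a region within 1 kb of its other annotated starts, 3.96 and 6.09 kb downstream. The summit at the first start held a CRE core in all 4 replicates.

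The windows differed in how many regions they held. The Nr4a1 window held 16 shared regions, the Egr2 window 15, Egr3 11, Egr1 10, Nr4a3 9, Egr4 5 and Nr4a2 4, against a median of 7 for all protein-coding genes. Ranked among genes whose windows were within 10% of the same length, Nr4a1 stood at percentile 97.0 and Egr2 at 96.9. Egr3 stood at 83.7, Egr1 at 77.9, Nr4a3 at 60.1, Egr4 at 48.0 and Nr4a2 at 31.8. In single lists Nr4a1 had 18, 19, 18 and 19 regions in replicates 1 to 4, Egr2 16, 17, 16 and 16, Egr3 13, 12, 11 and 11, and Nr4a2 6, 5, 5 and 5. The counts varied more for Nr4a3 (9, 10, 14 and 11), Egr1 (13, 14, 10 and 11) and Egr4 (6, 7, 6 and 9). The order of the members depended on the flank. With 10 kb on each side the Nr4a2 and Egr2 windows held 4 shared regions each and both stood at percentile 71.4 of all genes, whereas with 50 kb Nr4a2 stood at 32.1 and Egr2 at 92.1. All 4 shared regions of the Nr4a2 window lay between the start and 21.3 kb downstream of it. Neither the Nr4a2 nor the Egr4 window had a shared region with a summit more than 1 kb upstream of the start.

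**Figure D2:**
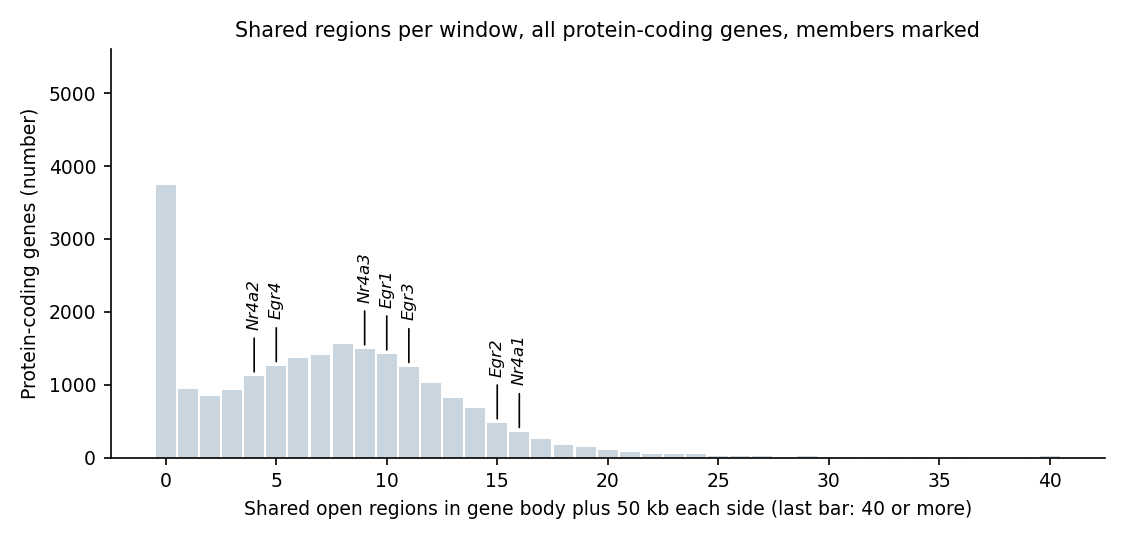
Number of shared open regions in the gene body plus 50 kb on each side (horizontal axis) for all 21851 protein-coding genes (bars, number of genes), with the 7 members marked. Nr4a2 and Egr4 lie below the median of 7 regions, and Egr2 and Nr4a1 lie in the upper tail with 15 and 16.

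In all, 70 of the 93 merged regions in the windows were shared (75.3%), against 68.0% of all merged regions. Of the other 23, 5 came from 3 replicates, 5 from 2 and 13 from 1. The strongest region not found in all 4 replicates lay in the Egr4 window, at percentile 59.8. Of the 70 shared regions 9 were at a start of a member, 7 at the promoter of another gene and 54 were distal. Only starts of protein-coding transcripts were used for these classes, so a distal region can lie at another annotated start. The distal ones had their summits between genes in 35 cases, in introns in 15 and in exons in 4. Their median signal percentile was 46.9, against 54.7 for all distal shared regions, and 21 of the 54 lay above that value. Distal regions in the Egr2 window stood higher, with a median percentile of 70.2 and 8 of 13 above it, and those in the Egr1 window lower, with 19.3 and 2 of 8.

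Nr4a3 combined the lowest promoter signal of the members with their strongest distal region, an intergenic one 32.9 kb upstream of its start, 820 bp long when merged. Its signal values were 16.7, 18.1, 16.1 and 16.2 in replicates 1 to 4, against 4.96, 4.67, 4.54 and 4.62 at the promoter. Its percentile among all regions was 98.3 ± 0.539 by signal and 98.8 by −log10 q. The contrast with the promoter was wide by signal only, as the promoter stood at 35.3 by signal and 83.7 by −log10 q. A distal region 1.90 kb upstream of the start stood at 56.6 by signal and 95.6 by −log10 q. A region 46.8 kb upstream stood at percentile 79.3 ± 1.55. The 1 region of the window that ranked higher by signal was the promoter of Stx17, a syntaxin gene, at percentile 98.8 ± 0.637, 79.8 kb downstream of the Nr4a3 start.

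In the Egr2 window the strongest region lay 7.93 kb upstream of the start, with signal values of 13.4, 14.6, 13.8 and 13.6 and a percentile of 91.4 ± 1.65. It was followed by 1 region 26.9 kb downstream, nearest to Ado, a thiol oxidase gene, at percentile 89.1 ± 2.76. The next was 48.6 kb downstream, at percentile 79.9. Further regions stood at percentiles 78.8, 77.9, 70.2 and 72.5 at 13.7, 25.5, 34.1 and 40.2 kb upstream. The summit of the last of these lay 55 bp from a start of the long non-coding RNA gene Gm32255. For Nr4a1, a region 7.81 kb upstream had signal values of 13.1, 12.6, 12.2 and 12.4, above both of its starts in every replicate, at percentile 86.9 ± 1.31. The strongest region of that window, at percentile 91.5 ± 3.89, lay 61.7 kb downstream. Among protein-coding genes it was nearest to 6030408B16Rik, and its summit lay 100 bp from a start of the annotated gene Gm49499. For Egr3, an intronic region of the neighbour Pebp4, 20.04 kb upstream, had 11.5, 11.9, 10.4 and 11.2, above the Egr3 promoter in every replicate, at percentile 81.5 ± 1.21. Its summit lay 200 bp from a start of the antisense gene Gm33524. In the Egr4 and Nr4a2 windows no distal region passed the median of all distal regions, and the promoter was the strongest region of each.

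**Figure D3:**
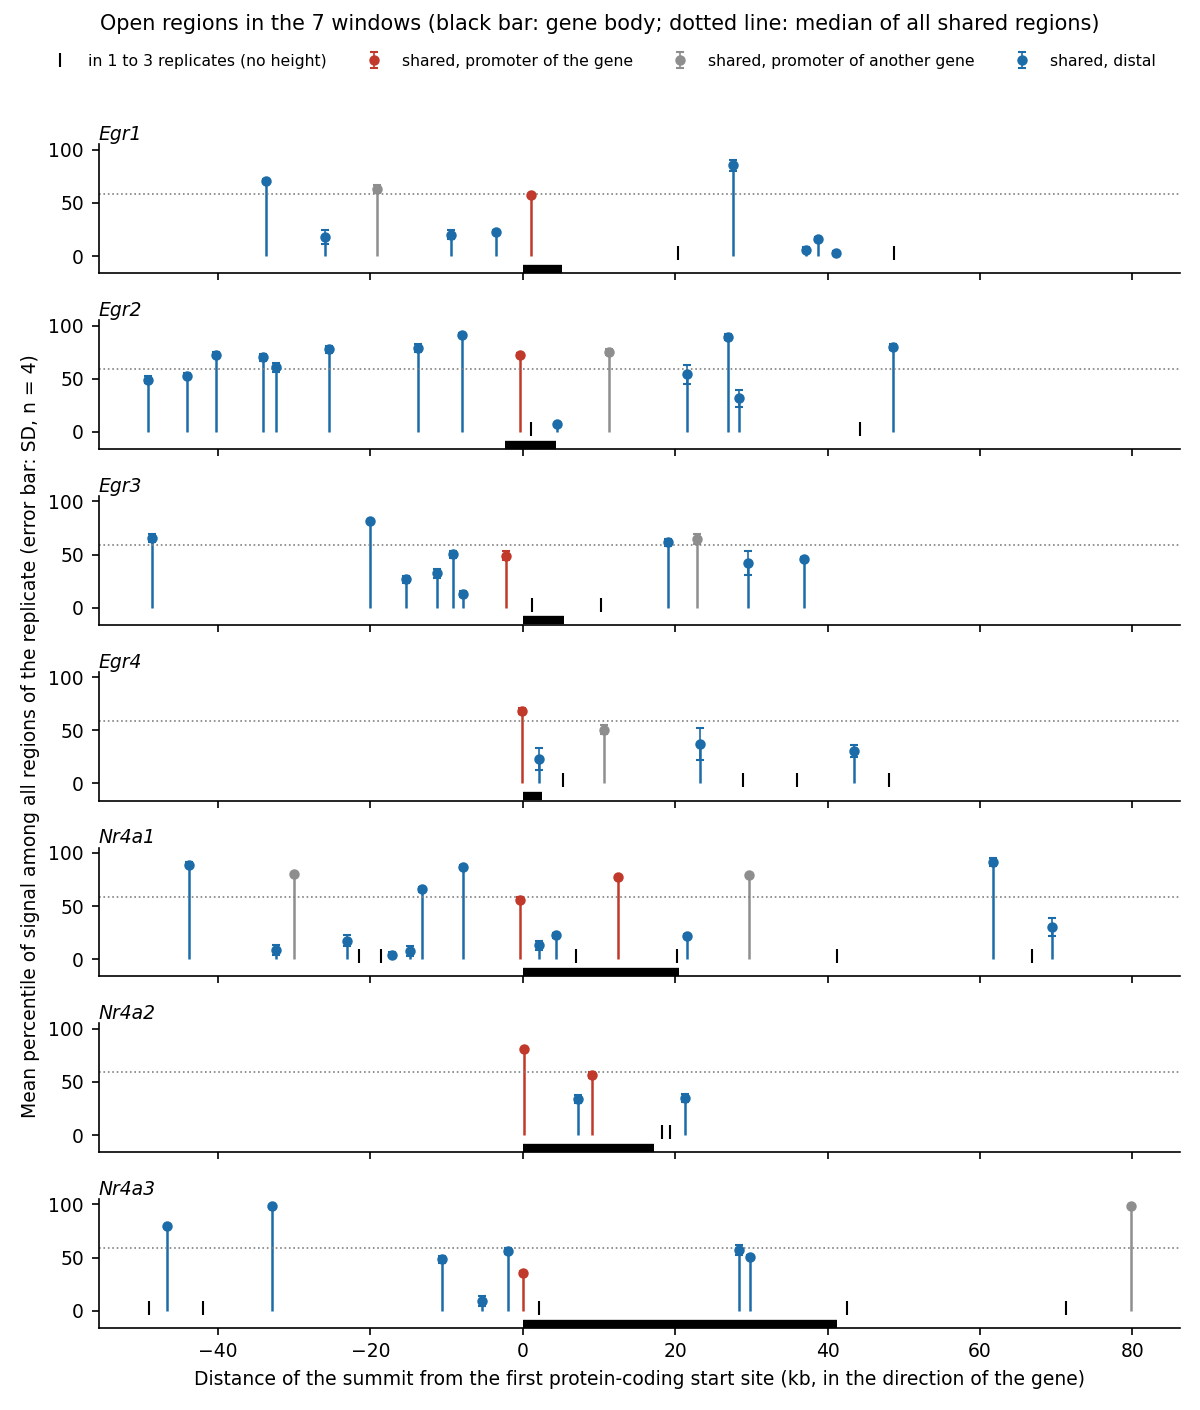
Open regions in the 7 windows by distance of the summit from the first protein-coding start (horizontal axis, kb, in the direction of the gene); height is the mean percentile of signal among all regions of the replicate, with the SD of 4 replicates. The region 32.9 kb upstream of Nr4a3 reaches 98.3 while the Nr4a3 promoter is at 35.3, and the Nr4a2 window has no region upstream of the start. By −log10 q, which is not drawn, the Nr4a3 promoter is at 83.7.

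The bases around 4 distal summits, 60 on each side, are printed to show the motifs at the region that ranked highest by signal among the intergenic and intronic ones nearest to Egr2, Egr3, Nr4a1 and Nr4a3. Other distal regions in the windows, most of them nearest to other genes, ranked higher than some of these. Capitals mark AP-1 (TGANTCA, where N is any base) and RUNX (TGTGGT) on either strand. The AP-1 shares given below use the same open pattern. The complete CRE, the long EGR site, NBRE, MEF2 and NF-kB would also be in capitals.
Egr2, upstream, chr10:67529876-67529996, plus strand: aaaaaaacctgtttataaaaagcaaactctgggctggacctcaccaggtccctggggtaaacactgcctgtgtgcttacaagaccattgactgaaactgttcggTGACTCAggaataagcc
Egr3, upstream, chr14:70057107-70057227, plus strand: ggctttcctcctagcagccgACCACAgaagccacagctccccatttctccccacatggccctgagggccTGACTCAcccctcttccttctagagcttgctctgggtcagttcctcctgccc
Nr4a1, upstream, chr15:101246400-101246520, plus strand: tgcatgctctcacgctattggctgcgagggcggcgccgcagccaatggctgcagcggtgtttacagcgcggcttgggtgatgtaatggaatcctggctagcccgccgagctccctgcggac
Nr4a3, upstream, chr4:48012216-48012336, plus strand: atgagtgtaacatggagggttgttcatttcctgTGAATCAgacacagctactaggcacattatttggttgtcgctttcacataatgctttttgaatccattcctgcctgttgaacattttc
The Egr2, Egr3 and Nr4a3 sequences each held 1 match to the AP-1 pattern, which takes in the site bound by Fos and Jun dimers. The match reads TGACTCA in Egr2 and Egr3 and TGAATCA in Nr4a3. Of all distal summits, 25.6% had a match within 50 bp and 35.3% within 100 bp. These few sequences are therefore not read as a trait of the members. The Egr3 sequence also held 1 RUNX motif, and the Nr4a1 sequence held none of the motifs marked in capitals. Of the motifs left in lower case, the KLF/SP motif GGGCGG lay within 50 bp of the Nr4a1 summit, and the ETS core GGAAG within 50 bp of the Egr3 summit, in all 4 replicates.

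Counted by summit, 55 of the 70 shared regions in the windows were distal, among them the Egr3 promoter region, whose summit lay over 1 kb from the start. The AP-1 share of these differed from that of all distal summits by less than the spread between replicates. AP-1 lay within 50 bp of 15, 13, 15 and 13 summits in replicates 1 to 4, or 25.5% ± 2.10, against 25.6% ± 0.149 of all 55995 distal summits. The ETS core GGAAG, read by the ETS and Elk factors, was the motif with the widest gap. It lay at 25, 23, 27 and 26 summits, or 45.9% ± 3.11, against 30.8% ± 0.164 of all distal summits, and was higher in all 4 replicates. The CRE core lay at 6, 5, 5 and 5 summits, or 9.55% ± 0.909, against 5.52% ± 0.0280. The KLF/SP motif GGGCGG lay at 4, 4, 3 and 4, or 6.82% ± 0.909, against 3.79% ± 0.0368. With 55 summits, 1 summit is worth 1.82 percentage points. All 4 replicates give summits of the same 55 regions, so the SD does not measure the spread between regions. The short EGR site GTGGGCG completed the 4 of 13 motifs that were higher in every replicate, but at 1 summit only. NFAT (GGAAA) lay at 31.4% ± 3.75 of the distal summits in the windows and at 31.1% ± 0.142 of all, and RUNX at 13.2% ± 3.44 and 14.6% ± 0.0279, both within the spread. These shares depended on the distance searched. Within 25 bp, of the 4 motifs the ETS core alone was higher in every replicate (24.5% and 16.1%), and the CRE core lay at 3.18% in the windows and 2.63% of all. Within 100 bp the ETS core (62.7% and 52.2%), the CRE core (11.4% and 9.95%) and KLF/SP (11.4% and 6.50%) were higher in every replicate. Within 100 bp NF-kB was also higher in every replicate, at 15.9% and 6.24%, and RUNX (16.4% and 24.6%) and AP-1 (32.3% and 35.3%) were lower in every replicate. The NBRE, the complete CRE and the long EGR site lay at 0 of the 70 summits of either class, and at 0.517%, 0.470% and 0.120% of all shared summits.

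At the 15 promoter summits in the windows the CArG box lay at 2, those of Egr1 and Egr2, in every replicate, or 13.3%, against 0.301% ± 0.0354 of all 12701 promoter summits. The 15 include 7 promoters of other genes. The NF-kB motif lay at 3, 2, 3 and 3 of the 15, or 18.3% ± 3.33, against 4.10% ± 0.0621. Only at the promoters of Egr4 and of the neighbour Reep2 was it present in all 4 replicates. The CRE core lay at 4, 3, 4 and 3, or 23.3% ± 3.85, against 14.5% ± 0.0925. AP-1 and RUNX lay at none of these 15, against 3.84% and 4.61% of all promoter summits. Within 25 bp NF-kB was not higher in every replicate (5.00% and 1.76%), and within 100 bp the CRE core was at 26.7% and 25.2%. With 15 summits, 1 summit is worth 6.67 percentage points.

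**Figure D4:**
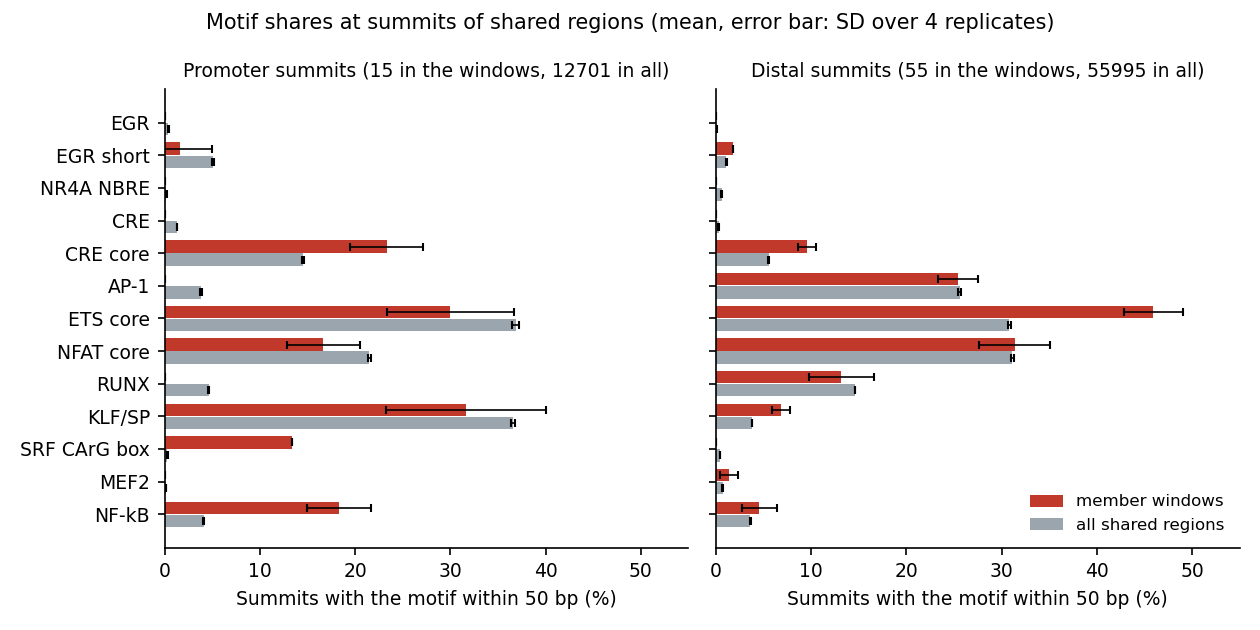
Share of summits of shared regions with a motif within 50 bp on either strand, in the member windows (red) and in all shared regions (grey), for promoter summits (left) and distal summits (right); bars are means and error bars the SD over 4 replicates. The ETS core lies at 45.9% of distal summits in the member windows and 30.8% of all, and the CArG box at 13.3% of promoter summits in the member windows and 0.301% of all.

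Between the 2 library tags, 14 of the 70 shared regions had a higher signal percentile in both KS136 replicates, against 21.4% of all shared regions, and 18 in both KS134 replicates, against 21.1%. Together 45.7% did not overlap, close to the 42.4% of all shared regions. The widest gap was at an intron of Fbxo41 in the Egr4 window, 23.3 kb downstream of Egr4, with a mean percentile of 45.9 in the KS136 and 28.1 in the KS134 replicates. There replicate 1 alone was low, at signal 3.17 against 5.46, 5.48 and 5.66 in replicates 2 to 4. Of the 70 regions 10 had an SD above 5 percentile points, and the median SD was 2.88.

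A list of 50 other genes of the same response, holding the SRF, Elk, MEF2 and CREB inputs, the Nab and RXR partners, other early factors and known targets, gave the setting. All 50 of 50 were open, beside 62.2% of all genes. The share among genes of like CpG ratio was not computed for this list, so the count is not read as a trait of the response. Their median promoter percentile was 30.5 by signal and 61.2 by −log10 q, against 35.3 and 54.4 for the members and 51.5 and 51.6 for all open promoters. By signal 41 of the 50 lay below the median of all, and 44 of the 50 ranked higher by −log10 q than by signal, as did 5 of the 7 members and 46.7% of all open promoters. Their windows held a median of 12 shared regions, against 10 for the members and 7 for all genes. Most regions were found for Cblb (23 in a window of 276.8 kb), a ubiquitin ligase that dampens T-cell activation, Elk3 (21 in 163.7 kb), an SRF partner, and Junb (19 in 104.2 kb), an AP-1 subunit. Among windows within 10% of the same length Junb stood at percentile 99.7, Elk3 at 98.9 and Cblb at 91.1. Fewest were found for Rnf128 (2), a ubiquitin ligase of T-cell anergy, and for the ERK phosphatase gene Dusp6, the SRF partner Elk1 and the factor Klf4 (5 each).

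For each member the listed gene with the most similar promoter percentile over the 4 replicates was sought among these 50. It was Mef2d for Egr1 (24.2 and 24.4), Ier5 for Egr2 (41.8 and 39.7), Dgkz for Egr3 (18.1 and 18.8) and Cd69 for Egr4 (35.3 and 35.6). It was Btg1 for Nr4a1 (48.6 and 48.7), Dusp5 for Nr4a2 (55.4 and 53.0) and Nfkbid for Nr4a3 (11.1 and 11.3). The mean absolute difference ran between 0.831 points for Nr4a1 and 3.29 points for Nr4a2.

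The neighbours set how regions could be assigned. Of the 70 shared regions 42 were nearest to a start of the member of their window and 28 to another protein-coding gene. All 4 regions of the Nr4a2 window and 8 of 9 of the Nr4a3 window were nearest to the member. In the Nr4a1 window 7 of 16 were, with 5 nearest to Grasp, 2 to Atg101 and 2 to 6030408B16Rik. The Egr2 window gave 10 of 15, with 5 nearest to Ado, and the Egr3 window 7 of 11, with 4 nearest to Bin3. In the Egr4 window 2 of 5 were nearest to Egr4, 2 to Fbxo41 and 1 to Cct7. The promoters of neighbours had a median signal percentile of 75.1, close to the 76.8 of all 12701 shared promoter regions. The 9 regions at starts of the members had 57.4. The members' regions were counted by their reach and those of neighbours by their summit, so the sets are not fully alike.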

How the data were processed

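ATAC-seq peak lists of 4 Th17 replicates (mm10 per the labels, 1 list per replicate) were used. The deposited signal, per the narrowPeak layout of the lists, is the authors' enrichment per region; the authors' −log10 p and −log10 q values and the summit offset are per region; the deposited display score was not used. Aligner and peak caller: not given in the sources used here. Only the numbered chromosomes (1 to 19), X and Y were analysed, and the lowest −log10 q was about 1.00 in each list. Overlapping regions (at least 1 bp) of the 4 lists were merged, and those with all 4 replicates are shared. Genes and starts came from GENCODE M21; starts are those of protein-coding transcripts of its basic set. Percentiles are ranks within a replicate; where a gene has several regions within 1 kb of its starts, the highest value counts. A promoter summit lies within 1 kb of a protein-coding start; regions reaching within 1 kb of a member's start are called its promoter. Motifs were searched on both strands within 50 bp of each replicate's summit; CArG, MEF2 and NF-kB by degenerate patterns, and the CRE contains the shorter CRE core. Named are the members, the genes nearest to their regions, and from the list of 50 those with most and fewest shared regions and those most like a member. The members, lists and motifs were chosen with earlier results of these data known. Python 3.11.15, pandas 2.3.3, numpy 2.4.6, pysam 0.24.0 and samtools 1.23.1 were used, and the merging, ranking and counting steps were tested on simulated lists. Alternatives varied windows, thresholds, ranking and replicates. A further marker list is not reported here.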

Additional observations from a re-analysis of the deposited data

Results flagged for a closer look

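Among 99 sets of 4 replicate values, 13 had 1 replicate set apart from the other 3 by more of the range than Dixon's 95% limit allows; chance flags about 1 in 20 groups, and the shares and counts rest on few distinct values. Replicates 1 to 4 were the one set apart in 4, 2, 4 and 3 cases. The Nr4a1 promoter percentile was 52.0 in replicate 4, with the others at or below 47.6, and the region at its first start was at 59.5 there, with the next at 55.1. The Nr4a3 promoter percentile was 12.1 in replicate 1, with the next at 10.8. The region 23.3 kb downstream of Egr4 was at percentile 14.3 in replicate 1, with the others between 41.9 and 46.2. In the Egr2 window the region 40.2 kb upstream was at 69.1 in replicate 4, with the next at 73.5, and the region 25.5 kb upstream was at 82.7 in replicate 3, with the next at 76.5. The region 11.2 kb upstream of Egr3 was at 25.6 in replicate 2, with the next at 34.3. The Egr2 window had 17 regions in replicate 2 and 16 in the others, and the Nr4a2 window 6 in replicate 1 and 5 in the others. At distal summits the CRE core share was 10.9% in replicate 1 and 9.09% in the others. In replicate 3 the KLF/SP share was 5.45%, against 7.27%, the MEF2 share 0%, against 1.82%, and the NF-kB share 7.27%, against 3.64%.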

How the results depend on the processing

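All 7 promoters were open without any 1 replicate, with windows of 500 bp or 2 kb, at −log10 q of at least 10 and with the start sites of every annotated transcript, an alternative chosen after seeing the data. With the strongest 50000 regions of each list 6 were, since the Nr4a3 promoter was in 0 of 4 lists. The 70 shared regions became 30 with 10 kb and 116 with 100 kb on each side, and 43 with the strongest 50000 regions, which keep fewer regions by construction; without 1 replicate they were 70 to 72. The median promoter percentile of the members, 35.3 by signal, was 54.4 by −log10 q and 67.7 among all regions, and 34.0 to 36.2 without 1 replicate. Their median percentile for regions per window, 70.4, was 77.9 among windows of like length and 68.6 to 75.0 without 1 replicate. The number of motifs higher at distal member summits than at all distal summits in every replicate was 4 with 50 bp. It was 2 with 25 bp, the ETS core and NF-kB, so 1 of the 4 was kept, and 5 with 100 bp, so 3 of the 4 were kept; the cause was not tested. Without 1 replicate it was 4 to 5. With 25 bp the differences, against those with 50 bp, were 8.47 against 15.1 percentage points for the ETS core and 0.550 against 4.02 for the CRE core, and -0.241 for KLF/SP and -0.347 for the short EGR site. With 100 bp that of RUNX was -8.21, against -1.40, and that of NF-kB 9.67, against 0.942. With 10 kb on each side the percentile for regions per window was 71.4 for both Nr4a2 and Egr2, against 32.1 and 92.1. Depth is unknown, so a region missing from a list may be closed or not detected. No paired analysis was possible because there is 1 group.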
